A study of Mus musculus with 4 samples.

Results

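Agrp neurons are the nuclei that the authors' deposited table places in neuron population M26.Agrp, 610 of 36523 annotated nuclei and of 23261 neurons. They come from a single-nucleus RNA-seq survey of the mouse mediobasal hypothalamus, in which wild-type mice on chow eaten ad libitum received insulin or saline before dissection. There are 2 Insulin and 2 Saline libraries, and each of 2 runs named in the table, run 230 and run 232, holds 1 of each. Dose, route, time after treatment, sex and the number of mice per library are not stated in the labels, so p-values reflect the library-to-library spread alone, which may be technical. The Insulin libraries gave 143 (run 230) and 185 (run 232) Agrp nuclei, and the Saline libraries 191 (run 230) and 91 (run 232). Runs also differ in sex-linked RNA: in Agrp nuclei Xist, the RNA of the inactive X chromosome, was at 1908 CPM (a gene's UMIs scaled to the summed UMIs of the nuclei concerned, library by library) in the Insulin and 1880 CPM in the Saline library of run 232, and at 0 in both libraries of run 230.

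Agrp neurons of the arcuate nucleus release agouti-related peptide, neuropeptide Y and GABA, and their firing drives feeding. Agouti-related peptide blocks melanocortin receptors that Pomc neurons activate through alpha-melanocyte-stimulating hormone. Leptin and insulin from the blood are known to restrain Agrp neurons, and ghrelin is known to excite them. Immediate early genes are transcription-linked genes that neurons switch on within minutes of a stimulus, with no new protein needed.

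The label holds against its markers: Agrp and Npy were both higher in these nuclei than in every other population of neurons. Agrp (GRCm38 chromosome 8, 105566698 to 105637393, minus strand) was at 916 and 997 CPM in Agrp neurons of the Insulin libraries (run 230, then run 232, here and in all value pairs that follow), and at 514 and 992 CPM in those of the Saline libraries. In the other neurons Agrp was at 94.2 and 83.6 CPM in the Insulin libraries and at 101 and 92.5 CPM in the Saline libraries. Npy (chromosome 6, 49822710 to 49829507, plus strand), which encodes neuropeptide Y, was at 539 and 639 CPM in Agrp neurons of the Insulin libraries and at 262 and 627 CPM in those of the Saline libraries. The low library for both peptides was Saline run 230. Npy in the other neurons was at 8.53 and 15.02 CPM (Insulin) and 6.27 and 10.7 CPM (Saline), so the gap between Agrp neurons and the rest was wider for Npy (mean log2 difference 5.66) than for Agrp (3.16). The next-highest means were 180 CPM for Agrp in M1.GABA, whose median nucleus had 1336.5 UMIs, and 44.9 CPM for Npy in M36.Sst/Pnoc.

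**Figure D1:**
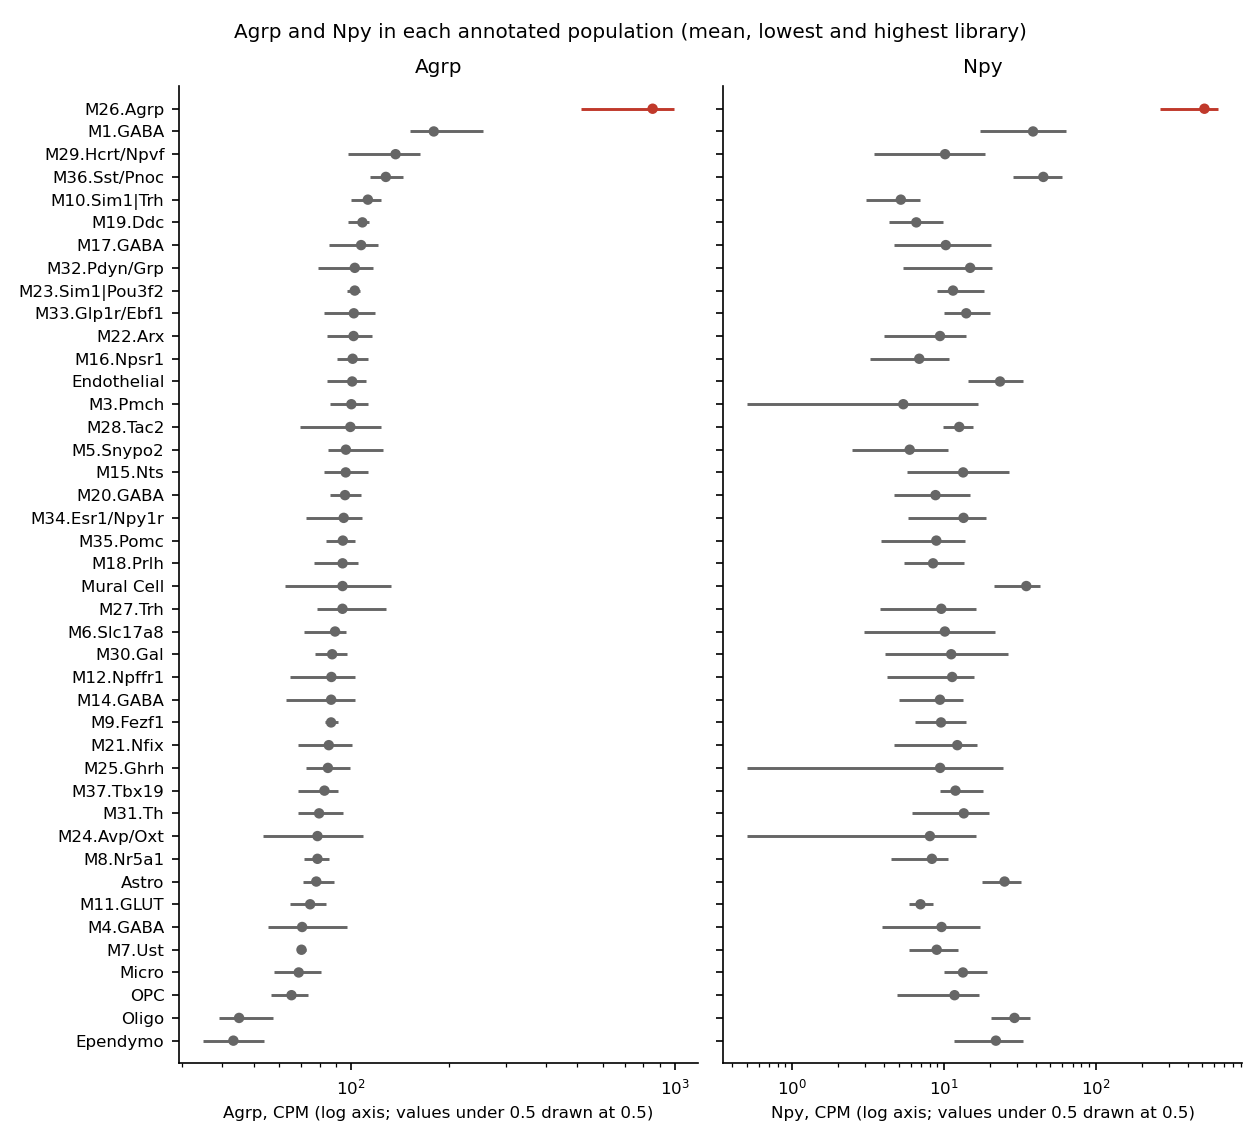
Agrp and Npy level (CPM, log axes) in each population of neurons with at least 10 nuclei per library and in each other cell type; points are means over 4 libraries and lines run from the lowest to the highest library. M26.Agrp, at 855 CPM Agrp and 517 CPM Npy, lies to the right of all other rows in both panels.

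Agrp RNA was also present outside Agrp neurons, with means from 43.2 CPM in ependymal cells to 180 CPM in M1.GABA, while Npy means reached at most 44.9 CPM. Agrp neurons held only 19.0% and 27.1% of the Agrp UMIs of all neurons in the Insulin libraries and 13.3% and 15.02% in the Saline libraries, against 60.5% and 57.0% (Insulin) and 55.8% and 49.2% (Saline) of Npy UMIs. The ratio of Agrp to Npy UMIs was 1.70 and 1.56 (Insulin) and 1.96 and 1.58 (Saline) in Agrp neurons, and 11.04 and 5.56 (Insulin) and 16.2 and 8.66 (Saline) in the other neurons. The 2 transcripts were thus not in 1 ratio across neurons, and the source of the Agrp UMIs outside Agrp neurons was not tested. The annotated Agrp gene overlaps an antisense gene, Gm38250, and whether the counting used strand is not given in the sources used here, so reads of the pair cannot be told apart.

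After each nucleus was thinned to 4000 UMIs, an Agrp UMI was found in 88.6% and 92.8% of Agrp nuclei in the Insulin libraries and in 86.4% and 92.1% in the Saline libraries. Unthinned shares were 95.8% to 99.5%. In the other neurons the thinned shares were 32.2% and 28.0% (Insulin) and 33.4% and 30.7% (Saline), and in oligodendrocytes, which should lack the gene, 10.0% and 31.4% (Insulin) and 13.2% and 7.04% (Saline). These oligodendrocyte shares, here and below, rest on the 70 and 35 (Insulin) and 53 and 71 (Saline) nuclei deep enough to thin, with 606 to 725 left out per library. Over all oligodendrocytes, unthinned, the Agrp shares were 9.18% and 11.7% (Insulin) and 8.74% and 9.83% (Saline). Npy separated the nuclei more sharply, at 82.1% and 81.2% (Insulin) and 62.5% and 86.5% (Saline) of Agrp nuclei, against 3.44% and 5.52% (Insulin) and 2.53% and 4.41% (Saline) of the other neurons. Oligodendrocytes had a thinned Npy share of 0% to 8.57%, with a median of 2354 UMIs per nucleus before thinning against 8538 in Agrp neurons.

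Agrp neurons were 2.63% and 3.02% of neurons in the Insulin libraries and 3.0% and 1.71% in the Saline libraries. The means were 2.82% ± 0.278 (Insulin) and 2.35% ± 0.913 (Saline; SD, n = 2 each), and the difference of 0.469 percentage points was smaller than the spread within Saline (exact permutation test, two-sided, p = 0.667, where 0.333 is the smallest p possible). Median UMIs per Agrp nucleus were 8766 and 7785 (Insulin) and 8772 and 9252 (Saline), and the nuclei of a library summed to between 916506 and 1769212 UMIs. In a second set of population labels in the table, 591 of the 610 were C16.Agrp, 14 were C8.Sst and 5 had other labels. Libraries of the same run shared 179 (run 230) and 65 (run 232) barcodes, against 14 to 25 between runs, and 86.0% and 63.1% of those shared within a run had the same annotation in both libraries. Only 6 Agrp nuclei had a barcode found in the other library of their run. Saline run 230 stood apart from the other 3 in abundant peptide RNAs: Pcsk1n, a secretory granule protein, was at 480 and 654 CPM (Insulin) and 219 and 691 CPM (Saline) in Agrp neurons. Pomc, which these nuclei should not transcribe, was at 21.1 and 25.6 CPM (Insulin) and 9.61 and 65.5 CPM (Saline).

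The receptors for leptin and growth hormone were among the genes with far higher levels in Agrp neurons than in the other neurons of the same libraries, while other hormone receptors were lower. Because the authors formed the population from the RNA of these same nuclei, differences in level are described and not tested. Of 8111 genes with at least 20 CPM in Agrp neurons or the other neurons, 235 (2.9%) were at least 2-fold higher in every library and 353 (4.35%) at least 2-fold lower. The mean was the highest of all populations for 727 genes (8.96%). Against Pomc neurons, 170 of 8212 genes (2.07%) were at least 2-fold higher in every library and 234 (2.85%) at least 2-fold lower. Values of log2 are differences within a library, averaged over 4 libraries, with 0.5 added to each count; TMM scaling would lower all those against the other neurons by 0.13. At the top of the rule-based list stood Corin (275 ± 50.7 CPM against 5.41 ± 0.929 in the other neurons, log2 5.66), a membrane protease, and Gm20647 (log2 6.15), an antisense gene inside Corin whose reads may not be separable from it.

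Among the 22 hormone and cytokine receptor genes with at least 20 CPM, 5 were at least 2-fold higher in every library and 5 at least 2-fold lower, with a median log2 difference of 0.09 against 0.14 over all 8111 genes. Ghr, the growth hormone receptor, was at 3165 and 2892 CPM (Insulin) and 3309 and 2991 CPM (Saline) in Agrp neurons, against 267 ± 21.0 CPM in the other neurons (SD, n = 4 libraries, as for the means below; log2 3.53). Its lowest Agrp library was above the highest library of any other population, of which M25.Ghrh came next at a mean of 1604 CPM. Lepr, the leptin receptor, was at 491 and 518 CPM (Insulin) and 459 and 423 CPM (Saline) in Agrp neurons, against 25.7 ± 3.83 CPM in the other neurons (log2 4.21) and 85.4 ± 21.8 CPM in Pomc neurons. The Lepr level of M33.Glp1r/Ebf1, with a mean of 362 CPM, came close, and the libraries of the 2 populations overlapped.

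Acvr1c (ALK7), a receptor for activin-type ligands, was at 352 ± 52.1 CPM against 16.9 ± 2.37 CPM (log2 4.38), and each Agrp library exceeded all libraries of the other populations. Its reads may not be separable from those of its antisense gene Gm13544 (log2 4.41). Calcr, the receptor for calcitonin and, with accessory proteins, amylin, was at 130 ± 21.0 CPM against 21.0 ± 3.36 CPM and ranked second after M30.Gal. Nr3c1, the glucocorticoid receptor, was at 240 ± 17.7 CPM against 85.2 ± 4.65 CPM. Ghsr, the ghrelin receptor, had 52 UMIs in all and was at 9.22 ± 1.06 CPM against 0.744 ± 0.266 CPM; only M25.Ghrh was as high, at 10.9 CPM.

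Insr, the insulin receptor, did not set Agrp neurons apart: it was at 133 and 112 CPM (Insulin) and 143 and 110 CPM (Saline), against 115 ± 8.52 CPM in the other neurons, and ranked 11th of 35 populations. Igf1r, the receptor for insulin-like growth factor, was lower in Agrp neurons than in all other populations (51.2 ± 12.5 against 152 ± 8.85 CPM, log2 -1.58). The remaining low receptors were Prlr for prolactin (log2 -1.72), Thrb for thyroid hormone (-1.86), Glp2r for glucagon-like peptide (-1.53) and Esr1 for oestrogen (-1.42). Set against Pomc neurons, the log2 difference of Agrp neurons was -2.97 for Prlr and -2.33 for Esr1.

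Downstream of these receptors, Stat3, the factor that carries the leptin signal to the nucleus, was at 288 ± 59.9 CPM against 49.2 ± 3.62 CPM (log2 2.53), above all libraries of the other populations. Socs3, its feedback inhibitor, was at 9.17 ± 0.618 CPM against 1.2 ± 0.188 CPM from 51 UMIs. Of 15 JAK-STAT genes 3 were 2-fold higher in every library and none was 2-fold lower. Of 32 insulin signalling genes, 2 were higher and 1 lower by that rule. The higher ones were Irs4, an insulin receptor substrate, at 73.9 ± 17.1 against 7.74 ± 1.58 CPM (log2 3.25), and Foxo1, a transcription factor that insulin signalling drives from the nucleus, at 120 ± 24.8 against 17.9 ± 1.95 CPM (log2 2.74). Irs4 was also high in Pomc neurons, 37.2 ± 13.0 CPM, whereas Foxo1 was at 17.6 ± 3.28 CPM there. Irs2 (58.3 ± 9.87 against 30.0 ± 2.14 CPM) and Ptpn1, a brake on insulin and leptin receptor signals (151 ± 27.4 against 77.9 ± 5.42 CPM), were nearly 2-fold higher, with log2 differences of 0.96 and 0.95.

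**Figure D2:**
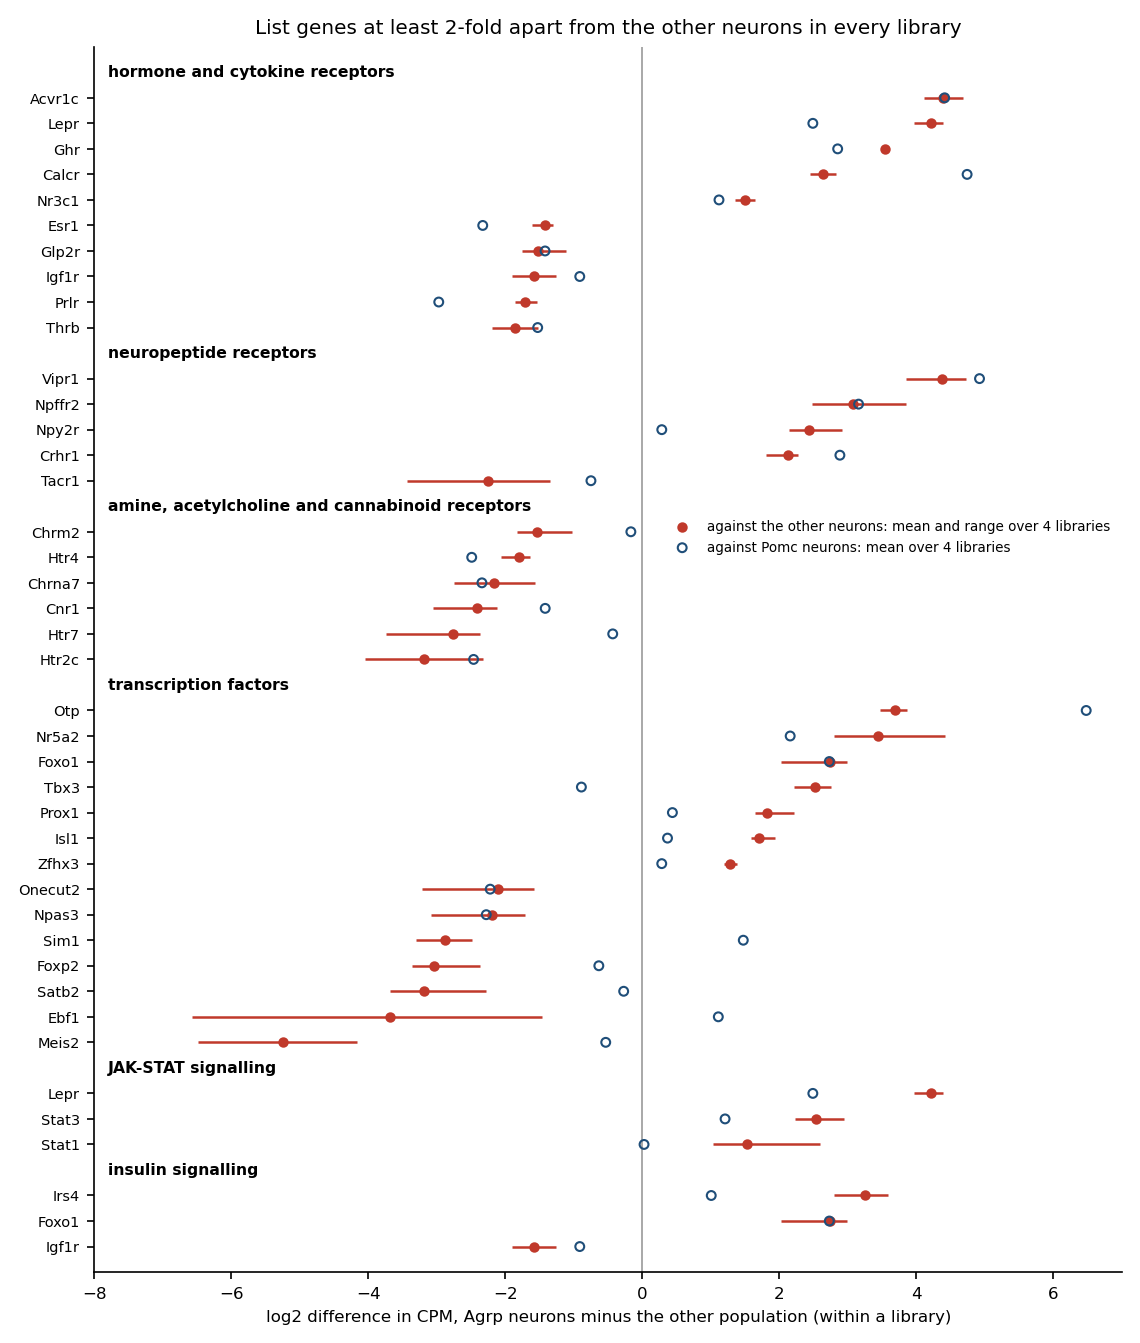
List genes at least 2-fold apart from the other neurons in every library, by list (a gene may stand in more than 1 list); filled points and lines give the mean and range over 4 libraries of the log2 difference to the other neurons, and open points the mean difference to Pomc neurons. Acvr1c, Lepr, Ghr, Vipr1, Npffr2, Otp, Nr5a2 and Irs4 lie above 3, and all 6 amine, acetylcholine and cannabinoid receptors lie below 0.

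Receptors for neuropeptides showed 4 of 12 genes 2-fold higher in every library and 1 lower. Vipr1, a receptor for vasoactive intestinal peptide, was at 21.3 ± 3.08 CPM against 1.05 ± 0.222 CPM (log2 4.38). Npffr2, a receptor for neuropeptide FF, was at 50.2 ± 13.5 CPM against 6.04 ± 1.81 CPM (log2 3.07). Npy2r, an inhibitory autoreceptor of NPY neurons, was at 43.9 ± 9.71 CPM against 8.12 ± 0.926 CPM, and Pomc neurons had nearly as much (36.4 ± 10.0 CPM). The postsynaptic receptors Npy1r and Npy5r were far lower in Agrp than in Pomc neurons, at 7.61 ± 2.00 against 67.8 ± 22.2 CPM and 21.4 ± 5.21 against 99.4 ± 9.88 CPM. Oprm1, the mu opioid receptor, was likewise at 61.5 ± 6.60 CPM in Agrp neurons and 281 ± 31.9 CPM in Pomc neurons.

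Receptors for amines, acetylcholine and cannabinoids ran the other way, with 0 of 11 genes 2-fold higher and 6 lower. Htr2c, a serotonin receptor that excites Pomc neurons, was at 38.4 and 61.2 CPM (Insulin) and 20.3 and 27.3 CPM (Saline) in Agrp neurons, against 315 ± 37.3 CPM in the other neurons and 189 ± 22.9 CPM in Pomc neurons. Htr7 (10.6 ± 4.24 against 69.3 ± 3.22 CPM) and Cnr1, the cannabinoid receptor (12.1 ± 5.15 against 62.1 ± 14.0 CPM), were also low, and the Cnr1 mean was the lowest of 35 populations, with M34.Esr1/Npy1r next at 12.6 CPM. Htr1f, another serotonin receptor, was at 124 ± 35.1 CPM in Agrp neurons against 76.6 ± 32.7 CPM in the other neurons (log2 0.77).

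Lists of fast-transmitter receptors and channels held genes on both sides. Of 39 glutamate and GABA receptor genes, 1 was 2-fold higher in every library, Gabre (27.2 ± 2.71 against 5.11 ± 1.26 CPM), and 10 were lower, with a median log2 difference of -0.56. The lower ones included Gabrb2, a GABA-A subunit (36.9 ± 6.47 against 232 ± 14.4 CPM), and Grm5, a metabotropic glutamate receptor (310 ± 35.7 against 1556 ± 56.7 CPM). Of 42 ion channel genes 3 were higher and 6 lower, with a median of -0.14. Kcnk9 and Kcnk2, potassium leak channels, were at 95.5 ± 16.1 against 15.6 ± 1.52 CPM and 430 ± 41.8 against 176 ± 6.32 CPM, and Trpc4 was at 252 ± 26.4 against 76.4 ± 7.74 CPM. Kcnn2, a calcium-activated potassium channel (29.6 ± 7.65 against 212 ± 31.1 CPM), and Trpm3 (75.5 ± 5.83 against 687 ± 98.7 CPM) were lowest among 35 populations.

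Genes of GABA release were present without standing out. Gad2 (196 ± 17.8 against 122 ± 11.1 CPM) and Gad1 (78.6 ± 24.5 against 51.8 ± 8.05 CPM) make GABA, and Slc32a1 (33.8 ± 13.8 against 30.4 ± 8.27 CPM) loads it into vesicles. Slc17a6, the vesicular glutamate transporter of hypothalamic neurons, was at 14.9 ± 7.75 CPM against 84.7 ± 10.8 CPM. Of 17 peptide processing genes 1 was 2-fold higher in every library, the granule protein gene Vgf (180 ± 32.1 against 46.1 ± 6.51 CPM), and 1 was lower. The median log2 difference of the list was 0.004.

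Transcription factors split evenly, with 7 of 20 genes 2-fold higher in every library and 7 lower. Otp, a homeobox factor of the developing arcuate nucleus, was at 89.5 and 118 CPM (Insulin) and 88.2 and 118 CPM (Saline), against 8.06 ± 1.4 CPM in the other neurons and 0.833 ± 1.01 CPM in Pomc neurons. M36.Sst/Pnoc came next for Otp at a mean of 80.9 CPM, and the highest library of any other population was at 93.7 CPM. Tbx3, a factor of arcuate feeding neurons, was high in Agrp neurons (42.6 ± 3.23 against 7.54 ± 1.32 CPM) and higher still in Pomc neurons (79.6 ± 10.99 CPM). Isl1, which acts in arcuate peptide neurons, was at 154 ± 16.8 CPM in Agrp neurons, 47.5 ± 8.59 CPM in the other neurons and 119 ± 13.2 CPM in Pomc neurons. Nr5a2 was at 54.5 ± 13.5 against 5.37 ± 2.48 CPM and ranked second after M28.Tac2, which had a mean of 244 CPM. Meis2 was at the other end, with 5 UMIs in the 610 nuclei (0.884 ± 0.598 CPM against 43.5 ± 16.7 CPM).

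Of 7 lists of markers of other cell types, the summed levels of 6 overlapped between treatments in Agrp nuclei. The 8 markers of ependymal cells and tanycytes did not, at 42.9 and 41.4 CPM (Insulin) and 34.5 and 33.8 CPM (Saline), and their part in the treatment differences below was not tested. The 8 astrocyte markers summed to 149 and 135 CPM (Insulin) and 122 and 140 CPM (Saline), the 8 oligodendrocyte markers to 185 and 182 CPM (Insulin) and 152 and 191 CPM (Saline), and the 8 microglial markers to 139 and 101 CPM (Insulin) and 207 and 132 CPM (Saline). All genes of these 3 lists were detected, and of the markers of oligodendrocyte precursors, endothelial, mural and ependymal cells 1 ependymal gene was at 0.

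The treatment question was which genes of Agrp neurons differ after insulin. Activity-linked genes stood at the head of the list: Gem and Junb had the smallest p, with log2 differences of 1.83 and 1.71 between Insulin and Saline, and Egr1, Fos and Rrad had differences of 1.30 to 1.49. Agrp, Npy, Ghr and Insr overlapped between the groups, and Lepr was separated upward by a small difference. Whether a gene passed depended on whether the run was a term of the test. edgeR's quasi-likelihood test without a run term called 0 of 11227 genes at an adjusted p of 0.05 (379 had an unadjusted p under 0.05), and DESeq2 called 1, Gem (adjusted p = 0.00449). Without Saline run 232 edgeR called 186 genes (81 higher and 105 lower), with a single Saline library assumed to vary like the Insulin pair, and without any other library it called 0. Libraries of a run deviated together from their group means (correlation across 11227 genes 0.402), and with run as a term edgeR called 17 genes higher (0.151%) and 15 lower (0.134%) in Insulin. That fit has 1 residual degree of freedom, so its p-values rest on spread pooled over genes more than on a gene's own libraries. DESeq2 with run as a term called only Gem (adjusted p = 0.0370).

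Gem (chromosome 4, 11704457 to 11714752, plus strand) encodes a small GTPase that restrains voltage-gated calcium channels. It was at 142 and 105 CPM in Insulin libraries and at 32.8 and 36.0 CPM in Saline libraries. The groups lay far apart, with log2 1.83 (SE 0.24), an edgeR adjusted p of 0.156 without and 1.11e-13 with run as a term. The second value rests on spread pooled over genes, and DESeq2 with run as a term gave an adjusted p of 0.0370. Rrad, a GTPase of the same family, was at 55.7 and 38.8 CPM in Insulin and 15.3 and 24 CPM in Saline libraries (edgeR adjusted p with run = 0.00540).

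Junb (chromosome 8, 84974484 to 84978718, minus strand), a subunit of the AP-1 transcription factor, was at 67.7 and 69.1 CPM in Insulin libraries and at 20.3 and 20.7 CPM in Saline libraries. Its log2 difference was 1.71 (SE 0.25) and nearly equal in the 2 runs, 1.72 and 1.71, with an edgeR adjusted p of 0.192 without and 3.12e-07 with run. Fos, its AP-1 partner and a common marker of recent neuronal activity, was at 31.6 and 26.3 CPM in Insulin and 12.4 and 6.55 CPM in Saline libraries (edgeR adjusted p with run = 0.0280). Egr1, an immediate early zinc-finger factor, was at 34.6 and 32.2 CPM in Insulin and 8.48 and 16.4 CPM in Saline libraries (edgeR with run, 0.0133). For these 3 genes no Saline library reached an Insulin library.

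Btg2, an early antiproliferative gene, was at 111 and 89.4 CPM in Insulin and 49.7 and 53.5 CPM in Saline libraries, and Tiparp, an ADP-ribosyltransferase, at 129 and 133 CPM in Insulin and 62.2 and 80.7 CPM in Saline libraries (edgeR adjusted p with run = 0.00396 for both). Jun was at 60.9 and 41.4 CPM in Insulin and 16.4 and 36.0 CPM in Saline libraries, so that its difference lay mostly in run 230 (log2 1.88, against 0.19 in run 232). Over the list of immediate early genes, 16 of 34 had counts high enough to test, 12 of these were separated upward and 0 downward, and 6 passed with run as a term. All 16 lay above 0, with a median log2 of 0.81 (1.08 in run 230, 0.49 in run 232), while the median of all genes was 0.00 and 16.2% of all genes were separated upward. The medians of the same 16 genes were 0.52 in the other neurons and 0.11 in Pomc neurons, where 6 of them could be tested, and the median of their differences from the other neurons was 0.23. Among 17 activity genes of the later wave, 11 were separated upward and 1 downward (median log2 0.36), and Gem and Rrad passed with run. Of 8 genes that tissue dissociation can induce, 5 were tested, with a median log2 of 0.12 (0.48 in run 230, -0.42 in run 232), and 0 were separated. The 8 summed to 283 and 262 CPM in Insulin and 164 and 322 CPM in Saline Agrp nuclei, and their part in the early-gene values was not tested.

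**Figure D3:**
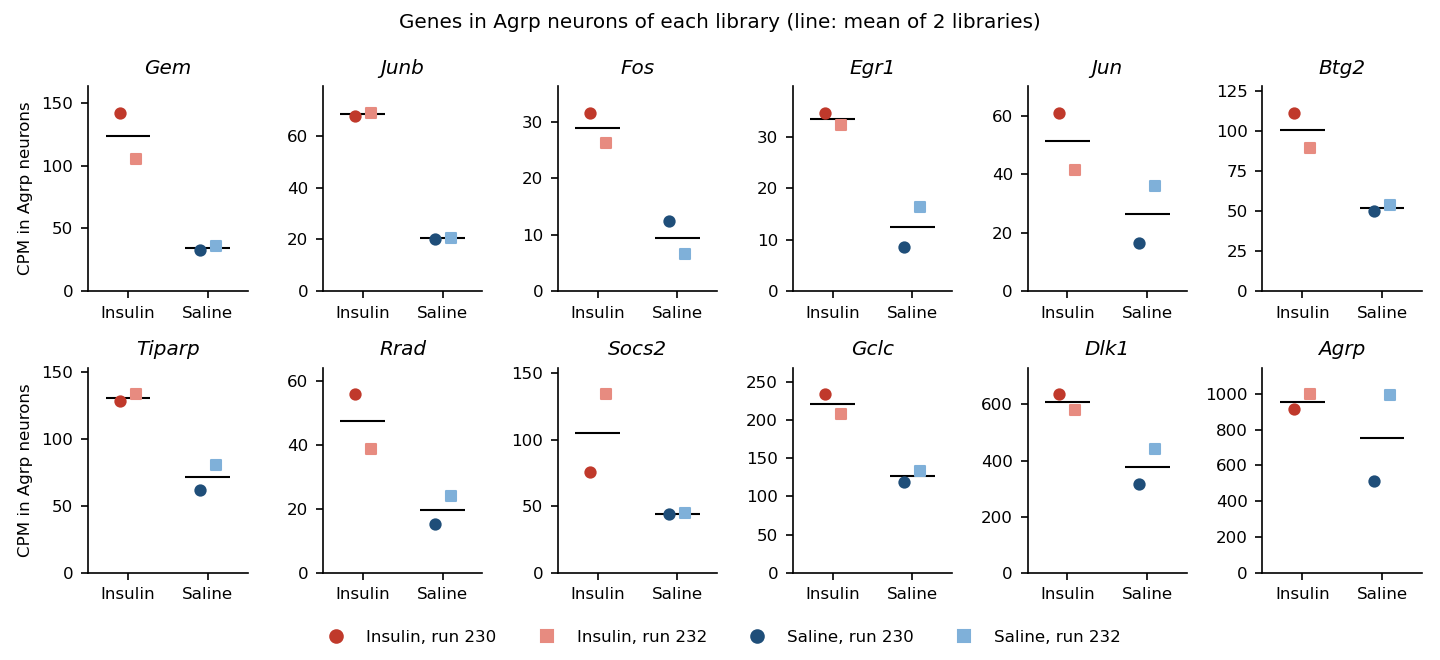
Level (CPM) of 12 genes in Agrp neurons of each library, with Insulin left and Saline right; circles are run 230, squares run 232 and lines the mean of 2 libraries. Gem, Junb, Btg2 and Gclc have tight Saline pairs below both Insulin libraries, whereas the low Agrp mean in Saline comes from run 230 at 514 CPM.

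The other genes that passed with run as a term have varied functions. Socs2, which dampens growth hormone receptor signalling, was at 76.0 and 134 CPM in Insulin libraries and at 44.1 and 44.7 CPM in Saline libraries (log2 1.22, SE 0.28, edgeR adjusted p with run = 0.000150). Gclc, the catalytic subunit of the rate-limiting enzyme of glutathione synthesis, was at 233 and 208 CPM in Insulin libraries and at 119 and 133 CPM in Saline libraries (log2 0.79, SE 0.18, edgeR with run, 0.00173). Both genes were separated, with Saline libraries close together. Dlk1, an imprinted Notch-like protein, was at 636 and 582 CPM in Insulin and 318 and 440 CPM in Saline libraries (edgeR with run, 0.00479). Fam107b (67.0 and 67.1 CPM against 31.1 and 33.8 CPM) and Mamld1 (83.5 and 94.0 CPM against 53.1 and 37.1 CPM) passed too.

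Errfi1, an inhibitor of the EGF receptor, passed with run (edgeR, 0.0133) although its libraries overlapped, at 74.5 and 127 CPM in Insulin and 33.3 and 80.7 CPM in Saline. Mt1, a metallothionein, was at 52.7 and 72.3 CPM in Insulin and 13.0 and 44.7 CPM in Saline libraries. The mitochondrial genes mt-Co1 (42.9 and 21.7 CPM against 5.65 and 17.5 CPM) and mt-Co3 (41.4 and 15.1 CPM against 13.0 and 6.55 CPM) passed as well. Mitochondrial UMIs made up 0.0164% and 0.00664% of the UMIs of Agrp nuclei in Insulin and 0.00435% and 0.00447% in Saline libraries, and the part of carried-over cytoplasm in these values was not tested.

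The 15 genes that fell with run as a term were all highest in Saline run 230, in Agrp neurons and in the other neurons alike. Hccs, which attaches haem to cytochrome c, was at 114 and 95.4 CPM in Insulin and 276 and 139 CPM in Saline libraries (log2 -1.04, SE 0.30, edgeR with run, 5.83e-05). Lrrc19 was at 32.4 and 43.4 CPM in Insulin and 79.7 and 64.4 CPM in Saline libraries, and Fgf1, a fibroblast growth factor, at 254 and 152 CPM in Insulin and 423 and 242 CPM in Saline libraries. Hdac8, Filip1l, Cmss1 and Macrod2os1 were further named genes, and the other 8 were predicted or uncharacterised transcripts. Without Saline run 230 the log2 difference of Cmss1 turned to 0.02, and those of Gm37459 (0.37), 4930419G24Rik (0.14) and 9630013A20Rik (0.0065) turned positive too. In the other neurons Cmss1 was at 244 and 181 CPM (Insulin) and 381 and 198 CPM (Saline), and Macrod2os1 at 96.0 and 58.0 CPM (Insulin) and 160 and 73.8 CPM (Saline). None of the 15 was called in the test against the other neurons given below. Saline run 230 was also an extreme for the 17 genes that rose. All but Mamld1, Fos and mt-Co3 had their lowest level in Agrp neurons in that library. Their log2 differences were larger in run 230 than in run 232 for all but Socs2, Mamld1 and Fos. Egr1 had 2.00 against 0.94, Rrad 1.85 against 0.67 and mt-Co1 2.87 against 0.29, while Socs2 had 0.78 against 1.57.

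The peptides themselves showed no difference beyond the spread of Saline. Agrp differed by log2 0.35 (SE 0.25; 0.83 in run 230 and 0.01 in run 232), and without Saline run 230 by -0.02 for Agrp and -0.06 for Npy. Ghr (3165 and 2892 CPM against 3309 and 2991 CPM), Lepr (491 and 518 CPM against 459 and 423 CPM) and Insr (133 and 112 CPM against 143 and 110 CPM) had log2 differences of -0.07 (SE 0.20), 0.17 (SE 0.18) and -0.08 (SE 0.22).

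No insulin signalling gene passed. Of 38 tested in a list of 43, 11 were separated upward and 7 downward (16.2% and 14.5% of all genes), 0 passed with run, and the median log2 was 0.03. Pik3r1, the regulatory subunit of PI3-kinase, was at 58.7 and 63.8 CPM in Insulin and 35.6 and 37.1 CPM in Saline libraries (log2 0.73, SE 0.23, edgeR adjusted p = 0.999). Irs1, an insulin receptor substrate, was at 20.3 and 11.8 CPM in Insulin and 29.4 and 38.2 CPM in Saline libraries (log2 -1.07, SE 0.36, edgeR adjusted p = 0.999). Foxo1 (129 and 83.5 CPM against 137 and 132 CPM) and the 10 tested of 23 FoxO target genes (median log2 0.09, 3 separated upward and 1 downward) did not pass. Hcrtr2, an orexin receptor, was at 21.1 and 12.5 CPM in Insulin and 39.6 and 32.7 CPM in Saline libraries and did not pass (edgeR with run, 0.0851).

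Early genes were found in a larger share of Agrp nuclei in Insulin libraries, and some nuclei had high counts. At 4000 UMIs per nucleus, 2 or more of 6 genes (Gem, Junb, Fos, Btg2, Egr1 and Jun, a set put together with their values known) had a UMI in 32.1% (95% exact binomial interval 24.5% to 40.6%) and 24.3% (18.3% to 31.2%) of Agrp nuclei in Insulin libraries, and in 9.78% (5.90% to 15%) and 11.2% (5.52% to 19.7%) in Saline libraries. These intervals cover counting error only, and with 2 libraries per treatment no exact permutation test can go below p = 0.333, so the shares are a description. In the other neurons the shares were 2.95% and 5.30% (Insulin) and 1.26% and 1.72% (Saline), and in Pomc neurons 3.90% and 1.22% (Insulin) and 1.11% and 2.40% (Saline). Oligodendrocytes had 0% to 2.86%. Unthinned, the Agrp shares were 53.1% and 42.2% (Insulin) and 22.5% and 36.3% (Saline).

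**Figure D4:**
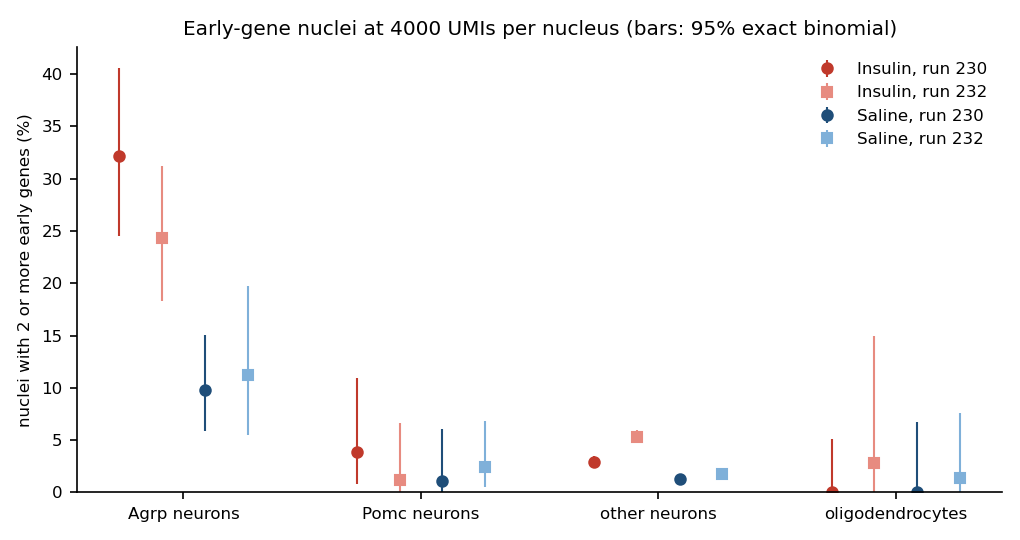
Share of nuclei (%) with a UMI of 2 or more of 6 early genes after thinning to 4000 UMIs, in 4 sets of nuclei; bars are 95% exact binomial intervals, Insulin libraries stand left of Saline libraries, circles are run 230 and squares run 232. In Agrp neurons both Insulin libraries (32.1% and 24.3%) lie above both Saline libraries (9.78% and 11.2%).

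Single genes gave the same order. A Gem UMI was present in 25% and 24.3% of thinned Agrp nuclei in Insulin and 10.9% and 12.4% in Saline libraries, and in 4.75% and 6.10% (Insulin) and 3.12% and 3.63% (Saline) of the other neurons. For Junb the shares were 21.4% and 21.5% in Insulin and 9.24% and 6.74% in Saline Agrp nuclei. Gem also rested partly on single nuclei of high count, with up to 36 and 23 UMIs in a nucleus of the Insulin libraries against 7 and 3 in the Saline libraries.

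These comparisons share libraries, so the responses of the 3 sets of neurons are given side by side. Set against the other neurons, the insulin difference of Agrp neurons was larger for Gclc, Gem and Socs2 with run as a term. edgeR's test of the difference between the 2 responses called 0 of 11227 genes without that term (620 had an unadjusted p under 0.05) and 10 with a run-by-population term, all toward Agrp neurons (0.0891%). Gclc had a log2 difference of 0.79 (SE 0.18) in Agrp neurons, 0.03 (SE 0.11) in the other neurons and -0.18 (SE 0.24) in Pomc neurons (edgeR adjusted p of the difference from the other neurons = 0.135 without and 0.000338 with the term). Gem had 1.83 in Agrp neurons, 0.94 in the other neurons and 0.44 in Pomc neurons (edgeR with the term, 0.0225), and Socs2 had 1.22, 0.28 and 0.48 (edgeR with the term, 0.0272). Agrp itself was called too (edgeR with the term, 0.0272), and its value rests on Saline run 230, as given above. The rest were Gm28928, Adarb2, Ptprt, Cntnap4, Cdh11 and Hepacam, adhesion genes and others. Their log2 differences were 0.48 to 2.15 in Agrp neurons and -0.32 to -0.06 in the other neurons. In Agrp neurons Adarb2 was high in Insulin run 230 alone (70.7 and 27.0 CPM in Insulin, 20.9 and 31.6 CPM in Saline libraries). Hepacam had only 14 and 20 UMIs (Insulin) and 6 and 1 (Saline) there. Ptprt libraries overlapped in Agrp neurons (357 and 216 CPM in Insulin, 280 and 115 CPM in Saline libraries). Cntnap4 differed there by log2 0.39 in run 230 and 1.64 in run 232. Fos and Btg2 were not called in this test: Btg2 had log2 0.94 in Agrp neurons and 0.97 in the other neurons, and Fos 1.48 and 2.04. Without either Saline library, edgeR without the term called 0 genes, and without Insulin run 230 or Insulin run 232 it called 16 and 12.

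**Figure D5:**
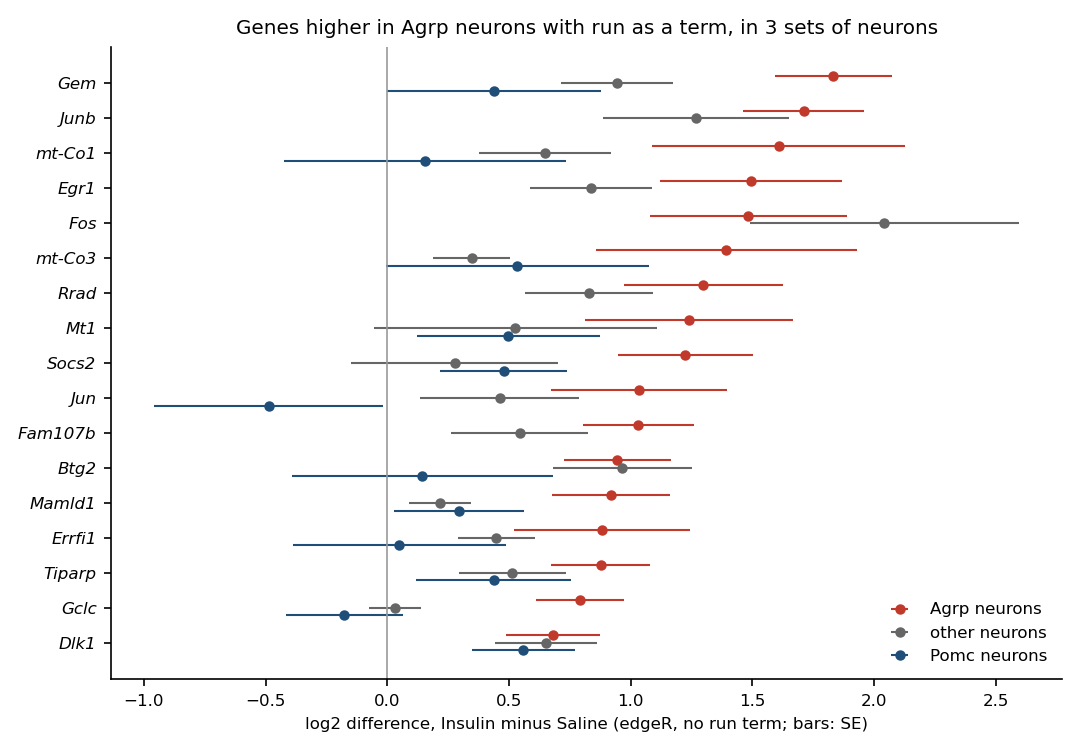
log2 difference between Insulin and Saline libraries, with standard errors, of the 17 genes higher in Agrp neurons with run as a term, in Agrp neurons, the other neurons and Pomc neurons; a missing Pomc point means too few counts to test. Gclc lies at 0.79 in Agrp neurons and at 0.03 in the other neurons, while Btg2 and Dlk1 lie at nearly the same values in both.

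Against Pomc neurons, edgeR without a run term called 1 of 11227 genes (0.00891%), Cntn5, a neuronal adhesion molecule. Cntn5 was at 1788 and 1460 CPM in Insulin and 1564 and 1025 CPM in Saline Agrp neurons (log2 0.30, SE 0.24), and in Pomc neurons its log2 difference was -0.72 (SE 0.18). The difference between the 2 responses was 1.07 (edgeR adjusted p = 0.0471), and it did not pass without Insulin run 232 (1.12) or without Saline run 232 (0.91). Neither the other neurons nor the Pomc neurons had a called gene of their own in edgeR, without run (99 and 179 genes at an unadjusted p under 0.05) or with it (1668 and 455).

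Promoters of genes that rose with run as a term were read for the cAMP response element, since several of the genes are textbook targets of the factor CREB. RefSeq windows (GRCm38.p6) from 250 bases before to 50 after the start were at hand for 10 of the 17 genes, of which 7 held TGACG, the short form of the element, on either strand, and 2 the full element TGACGTCA, each match of which also counts as 2 short ones. Of all 32851 windows, 20.8% held TGACG and 1.79% held TGACGTCA. A gene was counted if any of its windows matched, whereas these shares are over single windows. The element was chosen with the genes known, so the counts beside these shares are a description and no test of enrichment. The same windows were also read for AP-1, FOXO, CArG box and STAT motifs. Among the genes that rose, Fam107b held an AP-1 motif, Junb and Dlk1 held a FOXO motif, and no CArG box or STAT motif was found. Of all windows, 7.81% held the AP-1, 3.65% the FOXO, 1.63% the CArG box and 8.30% the STAT motif. The 200 bases before the start are shown for 4 genes, 2 with the full and 2 with the short element, with matches in capitals, 5′ to 3′ on the strand of the gene: Btg2 (chr1:134079156-134079355, minus strand), Errfi1 (chr4:150854870-150855069, plus strand, the second of 2 windows), Junb (chr8:84978749-84978948, minus strand) and Fos (chr12:85473690-85473889, plus strand).
Btg2: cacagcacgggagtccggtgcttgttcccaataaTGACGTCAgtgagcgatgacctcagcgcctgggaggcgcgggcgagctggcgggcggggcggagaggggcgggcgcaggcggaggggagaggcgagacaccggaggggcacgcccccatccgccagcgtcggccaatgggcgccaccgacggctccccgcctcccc
Errfi1: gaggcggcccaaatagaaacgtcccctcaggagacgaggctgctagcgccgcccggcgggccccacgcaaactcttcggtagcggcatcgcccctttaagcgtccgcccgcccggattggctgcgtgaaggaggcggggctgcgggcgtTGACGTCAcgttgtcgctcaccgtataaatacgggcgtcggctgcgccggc
Junb: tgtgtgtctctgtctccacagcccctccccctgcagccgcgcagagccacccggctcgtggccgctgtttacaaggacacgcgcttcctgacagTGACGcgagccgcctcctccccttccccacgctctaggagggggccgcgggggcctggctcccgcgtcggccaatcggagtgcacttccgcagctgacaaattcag
Fos: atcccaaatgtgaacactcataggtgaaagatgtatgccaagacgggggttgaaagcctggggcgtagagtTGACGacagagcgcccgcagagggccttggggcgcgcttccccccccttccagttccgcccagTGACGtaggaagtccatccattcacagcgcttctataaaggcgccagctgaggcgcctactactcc
Counted from the start, the first base of the match lies at -166 in Btg2, -51 in Errfi1, -106 in Junb, and -129 and -66 in Fos. A match describes letters only, and binding was not measured.

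The spread between nuclei of the population differed widely among genes. The variance of UMI counts over the nuclei of a library was divided by the Poisson variance at their depths, for the 5323 genes with at least 200 UMIs, whose median ratio was 1.18. Kcnip4, a regulator of potassium channels, led with a ratio of 48.1 (median of 4 libraries), followed by Cntn5 (36.8), the nuclear RNA Malat1 (36.8), Lrp1b (26.9) and Tenm2 (25). The others of the first 12 were Il1rapl2, Lingo2, Gpc5, Nkain2, Pcdh9, Zfp804b and Nrg1, and 9 of the 12 stayed among the first 12 after thinning. Agrp had a ratio of 4.35 and Ghr 8.16. Gem had 9.26 and 6.01 in Insulin and 3.10 and 1.38 in Saline libraries. The ratios grow with a gene's mean count, which for Gem was higher in Insulin libraries, so they do not show whether its spread differed between treatments.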

How the data were processed

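Single-nucleus libraries of mouse mediobasal hypothalamus were analysed from the authors' deposited matrix of UMI counts (41156 barcodes, 31053 genes) and their deposited table of library, run, treatment and population. Per the submitters' processing notes, Cell Ranger and GRCm38 were used; the version, intron setting and strand of counting are not given in the sources used here. Nuclei called M26.Agrp in the table were the members. Those it called doublets are counted among the 36523 annotated nuclei but were left out of all sets of neurons. A further 11 annotated nuclei had no matching barcode, and no column of per-sample values was left unused. Library names carry neither sample titles nor replicate numbers, so treatment and run were taken from the table.

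UMI counts were summed per library and population. Genes were kept by filterByExpr (minimum count 10, total 15) and tested with edgeR 4.0.16 (TMM, quasi-likelihood, Benjamini-Hochberg, threshold 0.05; R 4.3.3), without run as a term (2 residual degrees of freedom). Each run holds 1 Insulin and 1 Saline library per the deposited table; deviations of libraries of a run correlated at 0.402 over 11227 genes, so values with run as a term (1 residual degree of freedom) are printed where they change a call. Responses of 2 sets of neurons were compared by an interaction with a term per library. DESeq2 1.42.0, other size factors, no filter, thinned nuclei and leaving out each library were alternatives; leaving out nuclei with shared barcodes and keeping only C16.Agrp nuclei were added after seeing the data. Shares of nuclei were computed after thinning to 4000 UMIs, with 95% exact binomial intervals that cover counting error only (Python 3.11.15, pandas 2.3.3, scipy 1.17.1). The scripts were tested on simulated data.

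Genes named are those of the lists, the 12 with the smallest p in each direction without overlap between treatments and every gene past the threshold, the 25 highest and 10 lowest by level, the 5 smallest interaction p in each direction and the 12 with the largest spread between nuclei. The members and lists were chosen with earlier results of these data known.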

Additional observations from a re-analysis of the deposited data

Results flagged for a closer look

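Cntn5, a neuronal adhesion gene, had responses to insulin that differed between Agrp and Pomc neurons by log2 1.07 in a test of the difference itself (edgeR adjusted p = 0.0471, the 1 call among 11227 genes). The difference was 1.12 without Insulin run 232 and 0.91 without Saline run 232, and neither passed. Cntn5 was also among the genes with the widest spread between Agrp nuclei, with a variance 36.8 times Poisson. This ratio grows with a gene's mean count, which was high for Cntn5.

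Barcodes that the authors' table does not annotate entered no comparison. For each barcode the Agrp and Npy UMIs were taken as shares of all its UMIs. Of these 4633 barcodes, 9 had both shares at or above the medians of Agrp nuclei of the library, 2 and 4 in the Insulin libraries and 0 and 3 in the Saline libraries. The barcodes without annotation had median UMIs of 10245 and 7490.5 (Insulin) and 9864 and 605 (Saline), and at low depth few UMIs of a gene suffice. Among the other neurons 1 of 22651 nuclei did so, and among Agrp nuclei 179 of 610.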

How the results depend on the processing

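The count of genes that differed between Insulin and Saline in Agrp neurons was 0 by edgeR and 32 with run as replicate block (17 higher, 15 lower), 1 by DESeq2 and 1 by DESeq2 with the block, and 8 with no filter on low counts. Leaving out 1 library gave 0 to 186. It stayed at 0 with other size factors, thinned nuclei, no shared barcodes or only C16.Agrp nuclei, the last pair chosen after seeing the data. For the response against the other neurons the count was 0, with 10 under the replicate block (run by population term), 9 with no filter and 0 to 16 without 1 library (16 without Insulin run 230, 12 without Insulin run 232). Against Pomc neurons it was 1, and 1 to 11 without 1 library (11 without Insulin run 230, 9 without Saline run 230); the 1 call without Saline run 232 was in the other direction. The share of Agrp nuclei differed by 0.469 percentage points, and by -0.177 to 1.11 without 1 library, the negative value without Saline run 232. Of 611 values of 56 single genes under the alternatives, 605 kept their direction and 6 turned, all without Saline run 230: Gm37459 (0.37), 4930419G24Rik (0.14), 9630013A20Rik (0.0065), Cmss1 (0.022), Agrp (-0.018) and Npy (-0.056). Leaving out 1 library gave log2 -1.79 to 0.37 for Gm37459, -1.41 to 0.14 for 4930419G24Rik, -1.62 to 0.0065 for 9630013A20Rik, -1.14 to 0.022 for Cmss1, -0.018 to 0.84 for Agrp and -0.056 to 1.11 for Npy. The cause was not tested. Where a library is left out, the lone library of its arm is assumed to vary like the others. With 2 libraries per treatment, and run coinciding with sex-linked RNA, effects of run and sex cannot be told apart.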

Other observations

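A Sst UMI was present in 26.4% and 22.7% (Insulin) and 17.9% and 27.0% (Saline) of Agrp nuclei thinned to 4000 UMIs. In oligodendrocytes, which should lack the gene, it was present in 35.7% and 14.3% (Insulin) and 20.8% and 35.2% (Saline). The shares in Agrp nuclei were below those of oligodendrocytes except in Insulin run 232. In each library they were above those of the other neurons (10.3% to 20.7%) and of Pomc neurons (10% to 17.1%). Because these comparison sets differ, the shares do not show whether Sst in Agrp nuclei was above background. At least 5 Sst UMIs were present in 7 and 2 nuclei of the Insulin libraries and in 3 and 3 nuclei of the Saline libraries, and none of these was among the nuclei that the second set of labels calls C8.Sst. Summed over these nuclei, Lepr was at 161 and 383 CPM (Insulin) and 152 and 195 CPM (Saline), against 510 and 519 CPM (Insulin) and 466 and 434 CPM (Saline) in the rest of the Agrp nuclei. The nuclei were set apart by a measured value, so these levels are a description, and the share of other cells with as many Sst UMIs was not computed.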
